A study of Mus musculus with 16 samples.

Results

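The genes described here are 9 genes known from sympathetic and other autonomic neurons: Phox2a, Hand2, Gata3 and Tlx2, which encode transcription factors, Th and Dbh, which encode enzymes of noradrenaline synthesis, Chga and Chgb, which encode granins, and Chrna3, which encodes a subunit of ganglionic nicotinic receptors. They were taken by symbol, and all 9 were found among the 56748 genes of the deposited table. The mouse embryos, at stage E11.5, gave RNA of their trunk or caudal part and were either homozygous for a targeted mutation of the endothelin receptor B gene (Ednrb-/-) or carried its normal form (Ednrb+/+, here WT). The groups were Ednrb-/- trunk, WT trunk, Ednrb-/- caudal and WT caudal, with 4 libraries each that the labels call biological replicates. The strain, the exact borders of the dissected regions, and whether embryos were pooled or gave both regions are not stated in the sources used here.

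Autonomic neurons arise from neural crest cells, which leave the dorsal neural tube, gather beside the dorsal aorta and respond there to bone morphogenetic proteins. Those signals start a set of transcription factors, among them Phox2a, Hand2, Gata2 and Gata3, which drive the genes that make noradrenaline. Tyrosine hydroxylase (Th) makes L-DOPA, aromatic amino acid decarboxylase (Ddc) turns it into dopamine, the vesicular transporter encoded by Slc18a2 loads dopamine into vesicles, and dopamine beta-hydroxylase (Dbh) makes noradrenaline inside them. Several of these genes also serve other embryonic tissues, such as Hand2 in limb bud and heart, Gata3 in the nephric duct and spinal cord, and granins in many kinds of neurons.

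Ednrb itself had 3.87, 3.89, 4.80 and 3.37 FPKM (read fragments per kilobase, scaled by library, as deposited) in Ednrb-/- trunk libraries, against 35.8, 37.0, 41.8 and 40.2 FPKM in WT trunk libraries. It had 1.77, 2.55, 3.44 and 1.59 FPKM in Ednrb-/- caudal libraries, against 32.2, 26.2, 30.3 and 33.5 FPKM in WT caudal libraries. Every library thus followed its genotype label, with some signal left in the Ednrb-/- libraries. Libraries held 34883821 to 43444905 reads in listed genes. In 3 libraries, namely Ednrb-/- trunk replicate 3, Ednrb-/- caudal replicate 3 and WT caudal replicate 2, Xist and the Y-linked Ddx3y both reached 5 FPKM, which puts markers of both sexes in 1 library. Xist was at 135.4 FPKM in Ednrb-/- trunk replicate 2 and 156.5 FPKM in WT caudal replicate 1. WT trunk replicates 1 and 4 had 144.8 and 147.8 FPKM. All other libraries, which include every Ednrb-/- caudal one, had at most 9.92 FPKM. Sex markers were thus uneven over the groups, and their part in the comparisons was not tested. WT caudal replicate 3 had the lowest Phox2a, Hand2, Gata3 and Dbh of its group.

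The 250 bases before the transcription start of Th, Dbh, Chga and Chgb are shown because Th rose in the caudal region of Ednrb-/- embryos while the other 3 genes fell. They are RefSeq sequences on build GRCm38.p6, from chr7:142899996-142900245 on the minus strand for Th, chr2:27165257-27165506 on the plus strand for Dbh, chr12:102554691-102554940 on the plus strand for Chga and chr2:132781392-132781641 on the plus strand for Chgb. Capitals mark TGACGT on either strand, the core of the cyclic AMP response element, in Th, Chga and Chgb, and ATTA on either strand, a core that many homeodomain proteins bind, in Dbh.
Th: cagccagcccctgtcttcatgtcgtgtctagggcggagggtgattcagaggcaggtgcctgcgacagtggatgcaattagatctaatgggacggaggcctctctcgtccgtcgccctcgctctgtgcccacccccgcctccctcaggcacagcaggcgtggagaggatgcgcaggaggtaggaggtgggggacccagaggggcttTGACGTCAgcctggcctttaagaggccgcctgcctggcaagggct
Dbh: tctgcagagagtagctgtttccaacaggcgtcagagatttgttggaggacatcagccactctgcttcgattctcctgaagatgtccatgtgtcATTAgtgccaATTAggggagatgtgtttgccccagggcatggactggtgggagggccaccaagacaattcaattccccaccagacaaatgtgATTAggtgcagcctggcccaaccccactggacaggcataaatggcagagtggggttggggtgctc
Chga: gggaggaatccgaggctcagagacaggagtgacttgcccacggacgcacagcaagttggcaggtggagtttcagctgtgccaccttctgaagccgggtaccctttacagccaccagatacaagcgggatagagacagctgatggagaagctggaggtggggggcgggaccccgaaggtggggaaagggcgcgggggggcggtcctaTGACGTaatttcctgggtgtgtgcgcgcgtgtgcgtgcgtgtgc
Chgb: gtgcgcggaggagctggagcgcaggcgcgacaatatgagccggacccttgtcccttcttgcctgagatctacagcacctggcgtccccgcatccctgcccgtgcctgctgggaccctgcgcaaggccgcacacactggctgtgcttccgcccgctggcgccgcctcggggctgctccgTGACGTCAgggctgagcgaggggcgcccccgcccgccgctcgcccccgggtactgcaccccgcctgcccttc
The full palindrome TGACGTCA, in which TGACGT is read on both strands, starts 45 bases before the start of Th and 72 bases before that of Chgb. The single TGACGT of Chga starts 44 bases before its start. TGACGT on either strand was present in 3 of the 8 member genes with a promoter entry and in 6.47% of 32851 mouse promoter windows of the same length. TGACGTCA was present in 2 of those 8 genes and in 1.55% of the windows. ATTA was present in 4 of the 8, namely Hand2, Th, Dbh and Chga, and in 54.92% of the windows. In Dbh it starts 157, 147 and 65 bases before the start.

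All 9 genes passed the filter of at least 0.5 FPKM in at least 4 libraries and were tested among 17205 genes with limma on log2(FPKM + 0.5), called at a Benjamini-Hochberg adjusted p under 0.05. In the caudal region 3 of the 9 rose in Ednrb-/- embryos (Hand2, Gata3 and Th) and 5 fell (Phox2a, Dbh, Chga, Chgb and Chrna3), where 21.7% of all genes tested were called higher and 19.9% lower. That balance over all genes moved with the scaling, from 3732 higher and 3432 lower to 2219 and 5017 with TPM, 2671 and 4352 with the listed reads as the total, and 2613 and 4447 with voom, while the calls of the 9 genes in the caudal region were the same under those 3. In the trunk 2 rose (Tlx2 and Th) and 2 fell (Chga and Chgb), where 12.2% of all genes tested were called higher and 13.0% lower, or 2092 and 2229 genes, against 1643 and 2727 with the listed reads as the total and 1729 and 2965 with voom. The median difference of the 9 genes was 0.32 on the log2 scale in the trunk and -0.66 in the caudal region, against 0.0040 and 0.0068 over all genes tested. In the caudal region 3 of the 9 had every Ednrb-/- library above every WT library and 5 had every one below, against 19.1% and 18.2% of all genes tested. In the trunk these counts were 3 and 2, against 13.9% and 14.2%. In whole regions, fewer cells of a type and less RNA per cell cannot be told apart.

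**Figure D1:**
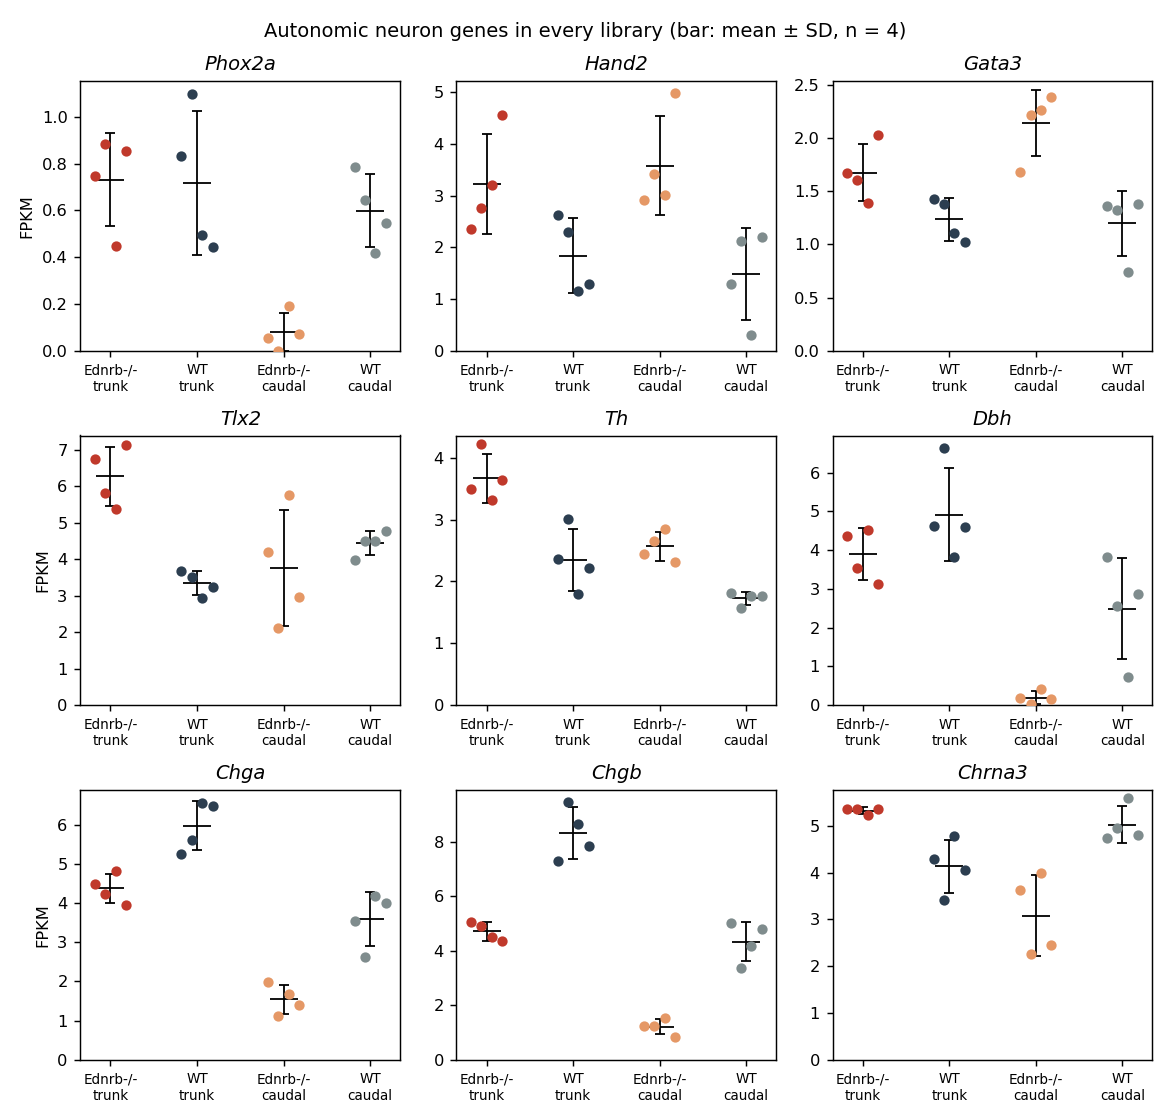
FPKM of the 9 genes (vertical axes) in every library of the 4 groups (horizontal axes); each point is a library and bars give the mean ± SD of 4. Dbh and Phox2a lie close to 0 in all 4 Ednrb-/- caudal libraries and in no other group, while Th lies higher in the Ednrb-/- libraries of both regions.

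Phox2a (ENSMUSG00000007946; chromosome 7, 101467520 to 101471933, plus strand, mm39, protein-coding) encodes a paired-like homeodomain factor of noradrenergic neurons. It had 0.0534, 0, 0.193 and 0.0705 FPKM in Ednrb-/- caudal libraries, which is 0 to 14 reads, against 0.786, 0.645, 0.416 and 0.547 FPKM in WT caudal libraries, or 31 to 59 reads. The groups did not overlap, and Phox2a fell by 0.92 ± 0.18 on the log2(FPKM + 0.5) scale (limma, SE, adjusted p = 0.000835). That scale understates the change of so low a gene, for which the WT caudal mean was 7.56 times the Ednrb-/- caudal mean. In the trunk it had 0.745, 0.884, 0.446 and 0.853 FPKM in Ednrb-/- libraries, against 0.831, 1.10, 0.495 and 0.444 FPKM in WT libraries. These ranges overlapped almost fully, and the difference was 0.04 ± 0.18 (limma, SE, adjusted p = 0.912). The last 95 bases of Phox2a lie under Inppl1 on the other strand, and the strand setting of the counting is not stated in the sources used here.

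Hand2 (ENSMUSG00000038193; chromosome 8, 57774018 to 57777668, plus strand) encodes a basic helix-loop-helix factor needed for the noradrenergic programme and for limb and heart. Caudal libraries had 2.92, 3.42, 3.00 and 4.98 FPKM in Ednrb-/- embryos, against 1.29, 2.13, 0.302 and 2.19 FPKM in WT embryos. The groups did not overlap and Hand2 rose by 1.16 ± 0.33 (limma, SE, adjusted p = 0.0106). Without WT caudal replicate 3, the lowest library, the rise was 0.78 ± 0.25 (limma, SE, adjusted p = 0.0238). In the trunk it had 2.36, 2.75, 3.21 and 4.57 FPKM in Ednrb-/- libraries, against 2.62, 2.30, 1.16 and 1.29 FPKM in WT libraries. The trunk ranges overlapped, and the difference of 0.69 ± 0.33 did not pass the test (limma, SE, adjusted p = 0.145). It passed in only 1 of 29 alternatives, which gave adjusted p-values of 0.0440 to 0.322 (limma). That was the fit without WT caudal replicate 3, a library outside the comparison, where the same difference had an SE of 0.23 (limma, adjusted p = 0.0440). The antisense RNA gene Hand2os1 covers 3251 bases of Hand2 and averaged 0.808 FPKM in Ednrb-/- trunk, 0.710 in WT trunk, 0.569 in Ednrb-/- caudal and 0.421 in WT caudal, so reads of the pair cannot be told apart with certainty.

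Gata3 (ENSMUSG00000015619; chromosome 2, 9861889 to 9894845, minus strand) encodes a zinc-finger factor that sustains Th and Dbh in sympathetic neurons. Caudal libraries had 1.69, 2.22, 2.27 and 2.39 FPKM in Ednrb-/- embryos, against 1.36, 1.32, 0.742 and 1.38 FPKM in WT embryos. Every Ednrb-/- caudal library was above every WT caudal one, and Gata3 rose by 0.65 ± 0.14 (limma, SE, adjusted p = 0.00177), or by 0.50 ± 0.12 without WT caudal replicate 3 (limma, SE, adjusted p = 0.00389). Trunk levels averaged 1.68 ± 0.265 FPKM in Ednrb-/- libraries and 1.24 ± 0.202 FPKM in WT libraries (SD, n = 4 each). Those ranges overlapped, and the difference was 0.32 ± 0.14 (limma, SE, adjusted p = 0.104). It passed in only 1 of 29 alternatives, the fit without WT caudal replicate 3, a library outside the comparison (limma, adjusted p = 0.0439). The related factor Gata2, which acts earlier in the same lineage, was not called in the trunk (0.34, adjusted p = 0.226) or the caudal region (0.49, adjusted p = 0.0558, both limma). Gata3 overlaps the genes 4930412O13Rik, 9230102O04Rik and Gm13256, of which the first averaged 1.07 FPKM in Ednrb-/- caudal and 0.596 FPKM in WT caudal libraries.

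Tlx2 (ENSMUSG00000068327; chromosome 6, 83045305 to 83047274, minus strand) encodes a homeodomain factor of neural crest derivatives that is needed for normal enteric innervation. It had 6.75, 5.81, 5.38 and 7.14 FPKM in Ednrb-/- trunk libraries, against 3.68, 3.53, 2.93 and 3.25 FPKM in WT trunk libraries. The groups lay well apart, and Tlx2 rose by 0.81 ± 0.19 (limma, SE, adjusted p = 0.00607), a ratio of means of 1.87. In the caudal region it had 4.21, 2.11, 5.76 and 2.96 FPKM in Ednrb-/- libraries, against 4.00, 4.50, 4.51 and 4.79 FPKM in WT libraries. The Ednrb-/- caudal libraries spread on both sides of the WT ones, and the difference of -0.29 ± 0.19 did not pass the test (limma, SE, adjusted p = 0.242). Without Ednrb-/- caudal replicate 3, its highest library and one with markers of both sexes, Tlx2 fell by 0.50 (limma, adjusted p = 0.0166).

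Th (ENSMUSG00000000214; chromosome 7, 142446489 to 142484865, minus strand) encodes the first and rate-limiting enzyme of catecholamine synthesis. It had 3.49, 4.22, 3.32 and 3.64 FPKM in Ednrb-/- trunk libraries, against 2.36, 3.02, 1.80 and 2.21 FPKM in WT trunk libraries. It had 2.45, 2.66, 2.85 and 2.32 FPKM in Ednrb-/- caudal libraries, against 1.81, 1.57, 1.76 and 1.77 FPKM in WT caudal libraries. In both regions every Ednrb-/- library was above every WT library. Th rose by 0.56 ± 0.11 in the trunk (limma, SE, adjusted p = 0.00154) and by 0.46 ± 0.11 in the caudal region (limma, SE, adjusted p = 0.00282), ratios of means of 1.56 and 1.49.

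Dbh (ENSMUSG00000000889; chromosome 2, 27055245 to 27073212, plus strand) encodes the enzyme that makes noradrenaline from dopamine and so marks noradrenergic cells among those with Th. It had 0.181, 0.0421, 0.416 and 0.149 FPKM in Ednrb-/- caudal libraries, or 4 to 40 reads, against 3.83, 2.55, 0.721 and 2.87 FPKM in WT caudal libraries, or 71 to 380 reads. The groups did not overlap, with WT caudal replicate 3 the nearest to the Ednrb-/- libraries, and the WT caudal mean was 12.6 times the Ednrb-/- caudal mean. Dbh fell by 1.99 ± 0.30 (limma, SE, adjusted p = 0.000103), and by 2.37 ± 0.19 without WT caudal replicate 3 (limma, SE, adjusted p = 5.70e-06). In the trunk it had 4.37, 3.55, 4.53 and 3.14 FPKM in Ednrb-/- libraries, against 4.63, 6.63, 3.82 and 4.60 FPKM in WT libraries. The trunk ranges overlapped, and the difference of -0.29 ± 0.30 did not pass the test (limma, SE, adjusted p = 0.521).

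Th and Dbh thus moved apart in the caudal Ednrb-/- libraries. The ratio of mean Dbh to mean Th, both in FPKM, was 1.06 in Ednrb-/- trunk, 2.10 in WT trunk, 0.0769 in Ednrb-/- caudal and 1.44 in WT caudal. Per library this ratio lay between 0.0158 and 0.146 in Ednrb-/- caudal and between 0.410 and 2.11 in WT caudal libraries, ranges that did not overlap. In the trunk it lay between 0.840 and 1.36 in Ednrb-/- and between 1.97 and 2.20 in WT libraries, which also did not overlap. Ddc, the enzyme between them, averaged 2.46 FPKM in Ednrb-/- trunk and 2.38 FPKM in WT trunk (limma, adjusted p = 0.810), and 2.10 FPKM in Ednrb-/- caudal and 1.70 FPKM in WT caudal (limma, adjusted p = 0.0883). The vesicle transporter gene Slc18a2 rose in the trunk, to 3.81 FPKM in Ednrb-/- against 2.61 FPKM in WT libraries (0.47, limma, adjusted p = 0.000987). In the caudal region it fell, to 2.11 FPKM in Ednrb-/- against 2.72 FPKM in WT libraries (-0.31, limma, adjusted p = 0.00769).

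**Figure D2:**
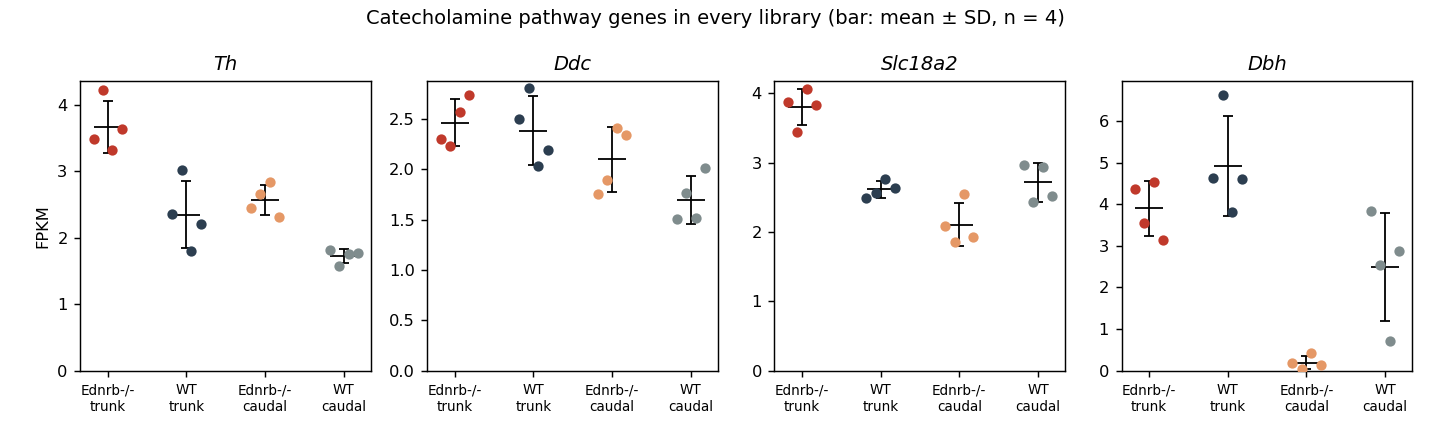
FPKM (vertical axes) of the 4 genes of noradrenaline synthesis and loading, in pathway order, in every library of the 4 groups; bars give the mean ± SD of 4. In the caudal region the Ednrb-/- libraries lie above WT for Th and between 0.0421 and 0.416 FPKM for Dbh, where WT libraries lie between 0.721 and 3.83 FPKM.

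Chga (ENSMUSG00000021194; chromosome 12, 102521228 to 102531287, plus strand) encodes chromogranin A, a matrix protein of the dense-core vesicles that store catecholamines and peptides. It had 1.98, 1.11, 1.69 and 1.40 FPKM in Ednrb-/- caudal libraries, against 3.55, 2.63, 4.17 and 4.00 FPKM in WT caudal libraries, with no overlap. Trunk levels were 4.49, 4.25, 4.83 and 3.96 FPKM in Ednrb-/- libraries, against 5.27, 5.62, 6.55 and 6.48 FPKM in WT libraries. The trunk groups did not overlap either, but stood closer together. Chga fell by 1.00 ± 0.14 in the caudal region (limma, SE, adjusted p = 4.75e-05) and by 0.41 ± 0.14 in the trunk (limma, SE, adjusted p = 0.0384). The trunk call was lost with a pseudocount of 0.1, with no filter, and without any 1 of Ednrb-/- trunk replicates 1, 2 and 4 or WT trunk replicates 2, 3 and 4 (limma, adjusted p between 0.0556 and 0.101).

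Chgb (ENSMUSG00000027350; chromosome 2, 132623198 to 132636999, plus strand) encodes chromogranin B, found in the same vesicles. It had 1.24, 1.24, 1.54 and 0.849 FPKM in Ednrb-/- caudal libraries, against 5.01, 3.38, 4.18 and 4.79 FPKM in WT caudal libraries. Trunk levels were 5.07, 4.93, 4.50 and 4.35 FPKM in Ednrb-/- libraries, against 7.30, 9.47, 8.67 and 7.84 FPKM in WT libraries. Neither region showed any overlap. Chgb fell by 1.497 ± 0.125 in the caudal region (limma, SE, adjusted p = 2.02e-06) and by 0.76 ± 0.12 in the trunk (limma, SE, adjusted p = 0.00059), ratios of WT to Ednrb-/- means of 3.56 and 1.77. The 2 granins thus fell in both regions, whether Th and Dbh beside them were higher, lower or not called.

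Chrna3 (ENSMUSG00000032303; chromosome 9, 54917395 to 54933846, minus strand) encodes the alpha 3 subunit of the nicotinic acetylcholine receptor, which carries fast transmission in autonomic ganglia. It had 5.36, 5.36, 5.23 and 5.37 FPKM in Ednrb-/- trunk libraries, against 4.28, 3.41, 4.79 and 4.05 FPKM in WT trunk libraries. It had 3.63, 2.25, 4.00 and 2.45 FPKM in Ednrb-/- caudal libraries, against 4.75, 4.97, 5.60 and 4.80 FPKM in WT caudal libraries. The groups did not overlap in either region, with Ednrb-/- above WT in the trunk and below WT in the caudal region. Chrna3 fell by 0.66 ± 0.13 in the caudal region (limma, SE, adjusted p = 0.00105). The trunk difference of 0.34 ± 0.13 did not pass the test (limma, SE, adjusted p = 0.0734), but passed in 7 of 29 alternatives, which gave adjusted p-values of 0.0193 to 0.203. Chrna3 lies between Chrna5 and Chrnb4, which encode its partner subunits. Chrna5 was not called in the trunk (-0.14, limma, adjusted p = 0.515) and fell in the caudal region by 0.59 (limma, adjusted p = 0.00373). Chrnb4 rose in the trunk by 0.55 (limma, adjusted p = 0.00821) and was not called in the caudal region (-0.07, limma, adjusted p = 0.728).

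Whether the genotype effect differed between the regions was tested as an interaction, the Ednrb-/- minus WT difference in the trunk minus that in the caudal region. It was called for 5 of the 9 genes, all with the higher value in the trunk, where 3.78% of all genes tested were called in that direction and 2.98% in the other. Over all genes these 650 and 513 calls became 1130 and 299 with TPM, 1187 and 447 with voom, and 340 and 245 without Ednrb-/- caudal replicate 4. The difference was 0.99 ± 0.19 for Chrna3 (limma, SE, adjusted p = 0.00835) and stayed called in all 28 alternatives. It was 1.10 ± 0.27 for Tlx2 (adjusted p = 0.0261), 0.74 ± 0.18 for Chgb (adjusted p = 0.0236), 1.70 ± 0.42 for Dbh (adjusted p = 0.0278, or 2.08 ± 0.26 and adjusted p = 0.00154 without WT caudal replicate 3) and 0.96 ± 0.26 for Phox2a (adjusted p = 0.0375, all limma with SE). Chga missed the threshold at 0.60 ± 0.19 (limma, SE, adjusted p = 0.0727). For Th the genotype effect was not called different between regions, with an interaction of 0.10 ± 0.15 (limma, SE, adjusted p = 0.735). The values of Hand2 (-0.48, limma, adjusted p = 0.590) and Gata3 (-0.32, limma, adjusted p = 0.349) did not pass either, and were -0.091 and -0.18 without WT caudal replicate 3 (limma, adjusted p = 0.912 and 0.546). The calls were not equally firm, since they were lost in 14 of 27 alternatives for Phox2a, 9 of 28 for Dbh, 4 of 28 for Chgb and 3 of 28 for Tlx2. The count of 5 became 1 without Ednrb-/- trunk replicate 1. It became 2 when WT trunk replicate 1, WT caudal replicate 1 or Ednrb-/- caudal replicate 4 was left out. It became 3 when WT caudal replicate 4 or Ednrb-/- caudal replicate 2 was. Calls over all genes fell too, to 349 higher and 257 lower without Ednrb-/- trunk replicate 1. They were 387 and 261 without WT trunk replicate 1, and 393 and 277 without WT caudal replicate 1. Without WT caudal replicate 4 they were 458 and 355, and without Ednrb-/- caudal replicate 2 they were 398 and 275.

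**Figure D3:**
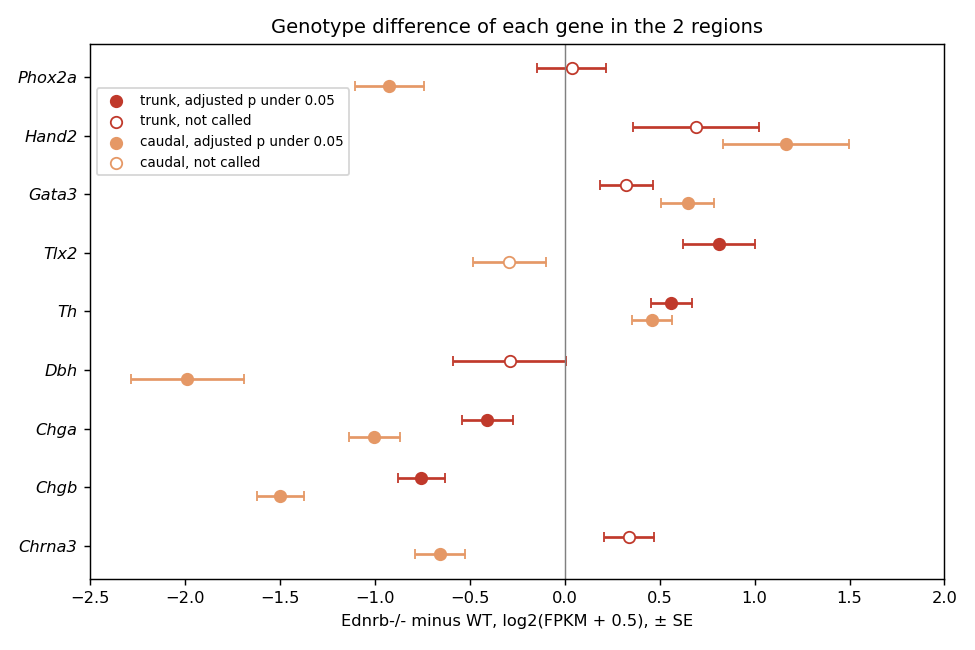
Ednrb-/- minus WT difference on the log2(FPKM + 0.5) scale (horizontal axis, ± SE from limma) for each of the 9 genes (vertical axis), in the trunk and in the caudal region; filled points passed an adjusted p of 0.05. Phox2a, Tlx2, Dbh, Chgb and Chrna3 have trunk points far to the right of their caudal points, whereas those of Th are 0.56 and 0.46.

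The same interaction test says that the gap between trunk and caudal levels of those 5 genes differed between Ednrb-/- and WT embryos. In Ednrb-/- embryos 7 of the 9 genes were called higher in the trunk than in the caudal region, all but Hand2 and Gata3, and 0 lower, where 17.3% of all genes tested were called higher and 18.9% lower, or 2982 and 3252 genes, against 3936 and 1945 with TPM, 3404 and 2594 with the listed reads as the total and 3535 and 2621 with voom. In WT embryos 4 were called higher in the trunk (Th, Dbh, Chga and Chgb) and 0 lower, where 9.69% of all genes tested were called higher and 8.35% lower. These comparisons share libraries with the genotype comparisons and add no independent evidence. Dbh had a trunk minus caudal difference of 2.67 ± 0.30 in Ednrb-/- embryos (limma, SE, adjusted p = 1.22e-05) and 0.97 ± 0.30 in WT embryos (limma, SE, adjusted p = 0.0335). Without WT caudal replicate 3 the WT difference of Dbh was 0.59 ± 0.19 and was not called (limma, SE, adjusted p = 0.0579). Chgb had 1.61 ± 0.12 in Ednrb-/- embryos (limma, SE, adjusted p = 4.06e-07) and 0.87 ± 0.12 in WT embryos (limma, SE, adjusted p = 0.000224). Chga had 1.27 ± 0.14 in Ednrb-/- embryos (limma, SE, adjusted p = 8.19e-06) and 0.68 ± 0.14 in WT embryos (limma, SE, adjusted p = 0.00304). Th had 0.44 in Ednrb-/- embryos (limma, adjusted p = 0.00471) and 0.34 in WT embryos (limma, adjusted p = 0.0381).

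The WT calls of Th and Dbh were the less firm, being lost in 12 and 9 of 29 alternatives. The WT count of 4 became 2 without WT trunk replicate 1, 2 or 4 or WT caudal replicate 2 or 3. It was also 2 with no filter, and without the 3 libraries with markers of both sexes. Over all genes the WT calls, 1667 higher and 1436 lower, became 1098 and 814 without those 3 libraries and 1598 and 1133 with no filter. They were 1551 and 1171, 1306 and 1179, and 1298 and 1201 without WT trunk replicates 1, 2 and 4. Without WT caudal replicates 2 and 3 they were 1206 and 947, and 1306 and 1054. For Phox2a, Tlx2 and Chrna3 only the Ednrb-/- regions differed past the threshold, by 1.08, 0.74 and 0.73 (limma, adjusted p = 0.000336, 0.00703 and 0.000607). In WT embryos the same genes gave 0.12, -0.36 and -0.26 (limma, adjusted p = 0.693, 0.209 and 0.196). The -0.36 of Tlx2 was called when the WT groups were fitted alone (limma, adjusted p = 0.0169). Tlx2 was lower in every WT trunk than in any WT caudal library all the same.

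The mean levels ran in different orders. Phox2a averaged 0.732 FPKM in Ednrb-/- trunk, 0.717 in WT trunk and 0.599 in WT caudal, among which no pair tested was called, and 0.0792 in Ednrb-/- caudal. Hand2 and Gata3 were highest in Ednrb-/- caudal, at 3.58 and 2.14 FPKM, followed by Ednrb-/- trunk at 3.22 and 1.68 FPKM, and neither gene was called between regions in either genotype. Th was highest in Ednrb-/- trunk at 3.67 FPKM and lowest in WT caudal at 1.73 FPKM. Dbh, Chga and Chgb were highest in WT trunk, at 4.92, 5.98 and 8.32 FPKM, and lowest in Ednrb-/- caudal, at 0.197, 1.54 and 1.22 FPKM. Ednrb-/- trunk and WT caudal, which share neither genotype nor region, were not compared.

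Other genes of the same pathways were read from 5 lists. Over all genes tested, 12.2% were called higher and 13.0% lower in the trunk. In the caudal region these shares were 21.7% and 19.9%. Of 9 further autonomic transcription factors tested, 4 rose and 2 fell in the trunk, and 2 rose and 2 fell in the caudal region, with medians of 0.20 and -0.14. Hmx1, a homeodomain factor of sympathetic and sensory ganglia, rose by 1.58 in the trunk, at 3.92 FPKM in Ednrb-/- against 0.963 FPKM in WT libraries (limma, adjusted p = 0.000161). Hand1, the paralog of Hand2, rose with it in the caudal region, by 0.89 (limma, adjusted p = 0.0178). Its caudal ranges overlapped, at 0.723 to 1.87 FPKM in Ednrb-/- and 0.0821 to 1.17 FPKM in WT libraries. They rest on 51 to 130 reads in Ednrb-/- and 6 to 86 reads in WT caudal libraries. Isl1 rose in both regions, by 0.23 in the trunk and 0.26 in the caudal region (limma, adjusted p = 0.0265 and 0.00902).

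Of 10 tested genes of catecholamine synthesis, transport and breakdown, 1 rose and 1 fell in the trunk, and 4 rose and 2 fell in the caudal region, with medians of -0.04 and 0.11. The trunk counts and the caudal falls were near the shares over all genes tested. The caudal rises include Maob, which breaks down amines, by 0.52, and Qdpr, which renews the cofactor of Th, by 0.24, and the falls are Slc18a2 and Cyb561, which supplies reducing power for Dbh inside vesicles, by 0.29 (limma, adjusted p = 0.00409, 0.000616 and 0.0219 for the 3 newly named). The noradrenaline transporter gene Slc6a2, a marker of mature noradrenergic neurons, was too low to be tested. It had 0.00907 to 0.0780 FPKM, or 2 to 20 reads, in Ednrb-/- trunk libraries, against 0.0861 to 0.123 FPKM, or 22 to 29 reads, in WT trunk libraries, which did not overlap. It averaged 0.0202 FPKM in Ednrb-/- caudal and 0.0227 FPKM in WT caudal libraries.

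Of 10 tested genes of granins, peptides and dense-core vesicles, 0 rose and 5 fell in the trunk, and 0 rose and 9 fell in the caudal region, with medians of -0.42 and -0.93. Pcsk1n, an inhibitor of the prohormone convertase, fell to 0.464 FPKM in Ednrb-/- against 3.02 FPKM in WT caudal libraries (-1.88, limma, adjusted p = 1.95e-05). Npy, a peptide released with noradrenaline, had 0.135 FPKM in Ednrb-/- against 1.77 FPKM in WT trunk libraries (-1.85, limma, adjusted p = 6.25e-06). In the caudal region it had 0.0254 FPKM in Ednrb-/- against 0.517 FPKM in WT libraries (-0.93, limma, adjusted p = 0.000298). These values rest on few reads, 0 to 6 against 34 to 48 in the trunk and 0 to 2 against 6 to 15 in the caudal region. The list thus moved in the direction of Chga and Chgb.

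Of 9 tested nicotinic receptor subunits, 2 rose and 2 fell in the trunk, and 0 rose and 7 fell in the caudal region, with medians of -0.14 and -0.59. The trunk falls were Chrna1 and Chrnb1, subunits of the muscle receptor, by 0.78 and 0.57 (limma, adjusted p = 0.000141 and 0.00147). The 7 caudal falls include Chrnb1, Chrng and Chrna1, all of the muscle receptor, by 1.005, 0.99 and 0.78 (limma, adjusted p = 8.82e-06, 3.80e-05 and 4.67e-05), and the neuronal subunit Chrnb2, by 1.10 (limma, adjusted p = 2.68e-05). Of 16 tested neurotrophic receptors and ligands, 1 rose and 4 fell in the trunk, and 1 rose and 9 fell in the caudal region, with medians of -0.09 and -0.40. Gfra2, the neurturin co-receptor, fell by 0.97 in both regions (limma, adjusted p = 0.000135 in the trunk and 4.54e-05 in the caudal region), and Ret, the signalling receptor of the same family, rose by 0.29 in the trunk (limma, adjusted p = 0.0208).

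**Figure D4:**
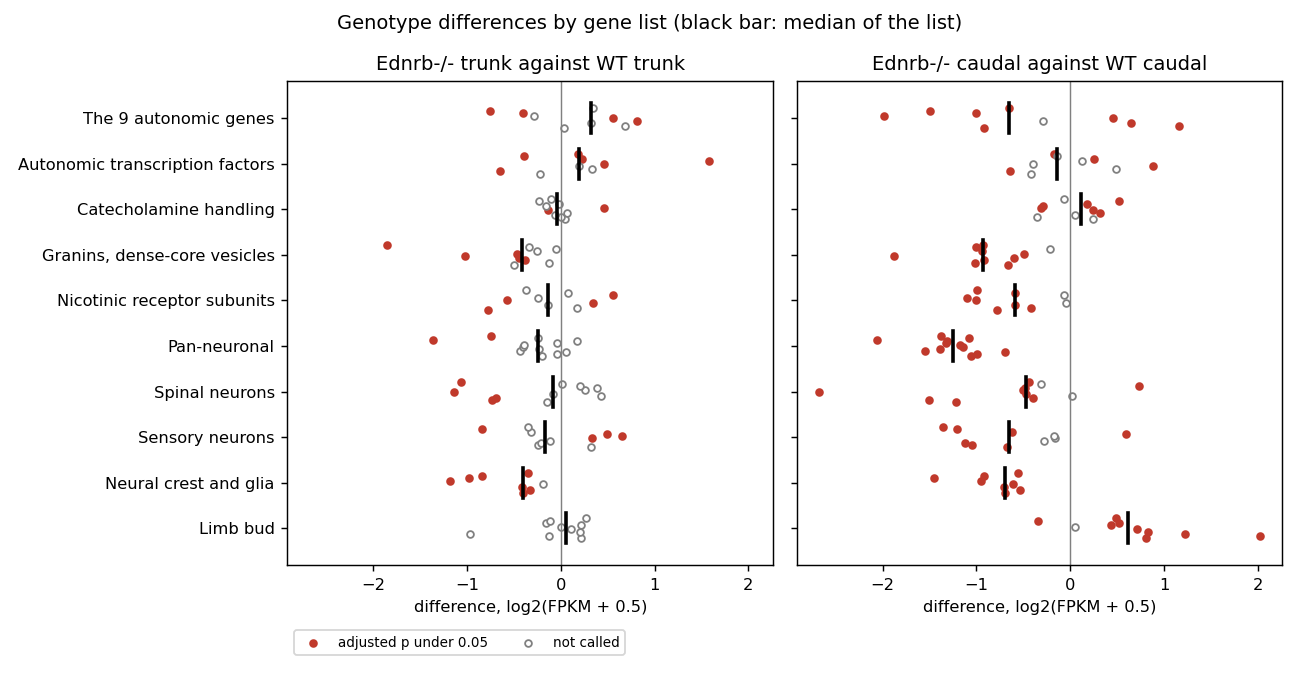
Ednrb-/- minus WT difference on the log2(FPKM + 0.5) scale (horizontal axes) for the 9 genes and for each tested gene of 9 lists (vertical axis), in the trunk and in the caudal region; filled points passed an adjusted p of 0.05 and black bars are medians. In the caudal region the points of pan-neuronal genes all lie below 0, with a median of -1.25, whereas 8 of 10 limb bud genes rose.

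Markers of other cell types also differed between the genotypes, and their part in the results was not tested. Their counts, here and in the next paragraph, stand beside the shares over all genes tested. Those were 12.2% higher and 13.0% lower in the trunk, and 21.7% and 19.9% in the caudal region. All 12 pan-neuronal genes fell in the caudal region, where their summed level was 176 to 327 FPKM in Ednrb-/- and 449 to 615 FPKM in WT libraries, with a median difference of -1.25. In the trunk 0 of those 12 rose and 2 fell, with sums of 525 to 604 FPKM in Ednrb-/- and 542 to 721 FPKM in WT libraries. Of the 8 neural crest and glial precursor genes, 7 fell in the trunk and 8 in the caudal region, with sums of 110 to 132 FPKM in Ednrb-/- trunk, 195 to 250 FPKM in WT trunk, 51.3 to 78.2 FPKM in Ednrb-/- caudal and 127 to 158 FPKM in WT caudal. Of the 9 genes, Dbh, Phox2a, Chga, Chgb and Chrna3 fell and Th, Hand2 and Gata3 rose in the caudal region. In the trunk Chga and Chgb fell, Tlx2 and Th rose, and the rest were not called. Other caudal neuron lists also moved mostly down, with 1 of 11 spinal neuron genes higher and 8 lower and 1 of 10 sensory neuron genes higher and 6 lower. In the trunk 0 of 11 spinal neuron genes rose and 4 fell, and 3 of 10 sensory neuron genes rose and 1 fell. Caudal sums were 28.3 to 34.4 FPKM in Ednrb-/- and 43.2 to 58.0 FPKM in WT libraries for the spinal list, and 47.4 to 61.3 FPKM in Ednrb-/- and 62.0 to 76.1 FPKM in WT libraries for the sensory list.

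Beside Hand2, the 10 limb bud genes had 8 rises and 1 fall in the caudal region, where they summed to 68.3 to 75.2 FPKM in Ednrb-/- and 35.6 to 53.0 FPKM in WT libraries, and 0 calls in the trunk. Of 4 tested heart genes, 1 rose and 1 fell in the trunk and 1 rose and 2 fell in the caudal region, and Nkx2-5, a defining heart factor, was at 0 in all Ednrb-/- libraries and in WT caudal and under 0.1 FPKM in WT trunk. Heart genes summed to 9.34 to 12.1 FPKM in Ednrb-/- trunk, 9.10 to 10.7 in WT trunk, 4.02 to 5.35 in Ednrb-/- caudal and 6.24 to 8.75 in WT caudal. Beside Gata3, 3 of 9 urogenital genes rose and 2 fell in the trunk, and 2 rose and 3 fell in the caudal region, with sums of 31.0 to 35.9 FPKM in Ednrb-/- caudal and 23.8 to 40.2 FPKM in WT caudal libraries. Of 6 tested markers of spinal V2 interneurons, which also use Gata3, 1 rose and 2 fell in the trunk and 0 rose and 2 fell in the caudal region. Beside Tlx2, 2 of 5 enteric neuron genes rose in the trunk and 0 fell, and 0 rose and 1 fell in the caudal region, with Vip under 0.1 FPKM in all 4 groups. Enteric neuron genes summed to 9.82 to 12.3 FPKM in Ednrb-/- trunk, 8.17 to 9.27 in WT trunk, 8.70 to 12.2 in Ednrb-/- caudal and 9.68 to 10.8 in WT caudal. Of 3 tested adrenal cortex genes, 2 rose in the trunk and 1 in the caudal region, and 0 fell. Of 7 surface ectoderm genes, 2 rose and 2 fell in the trunk and 3 rose and 2 fell in the caudal region, and 0 liver genes passed the filter.

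The genes whose pattern over the 16 libraries lay nearest to each of the 9 were found by the root mean square difference of centred log2(FPKM + 0.5) values, among 11828 other protein-coding genes with a mean of at least 1 FPKM (11829 for Phox2a). This is a description with no test. Nearest to Dbh were Hic1 and Efemp1, at 0.36 and 0.39, where Dbh itself varied by 1.22 about its mean. Nearest to Chga were Snhg11 and Nap1l2, at 0.11 and 0.13, and nearest to Chgb were Ctnna2 and Cplx1, at 0.16 and 0.17. Nearest to Th were Peg3 and Npr1, at 0.17 and 0.19. Nearest to Phox2a were Pgam2 and Asb2, at 0.20 and 0.20, and nearest to Chrna3 were Npr2 and Ppp1r17, at 0.13 and 0.13. Nearest to Hand2 were Tcf21 and Myrf, at 0.38 and 0.40, and nearest to Gata3 were Gja4 and Fzd4, at 0.17 and 0.17. Nearest to Tlx2 were Insm1 and Mstn, at 0.21 and 0.22, and Insm1 is among the autonomic transcription factors listed.

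Within the set the root mean square difference of a pair is the same from either gene, but its rank depended on which gene was taken as the start. Hand2 and Gata3, for example, were 0.40 apart, and varied by 0.66 and 0.32 about their own means. Dbh and Th were 1.23 apart, and varied by 1.22 and 0.35. Gata3 ranked 3 among the genes near Hand2, but Hand2 ranked 8872 among those near Gata3. Chrna3 ranked 12 among those near Tlx2, and Tlx2 ranked 632 among those near Chrna3. Chgb ranked 24 among those near Dbh, and Dbh ranked 557 among those near Chgb. Chga ranked 113 among those near Chgb and Chgb ranked 390 among those near Chga, whereas Th ranked 5199 among those near Dbh and Dbh ranked 11790 among those near Th.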

How the data were processed

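Total RNA was extracted with TRIzol and made into libraries by Illumina protocols, per the labels' protocols. The submitters' processing notes name fastp, HISAT2 2.0.5, featureCounts 1.5.0-p3 and build mm39. The sources used here do not state the annotation release or the strand and multi-mapping settings. The authors deposited FPKM in 1 table with gene lengths, per the file headers. Multiplied by length, they gave whole reads, within 0.01, for 100% of values after division by 1 step per library, which gave the depths. The library totals behind them were 0.9486 to 1.0064 times the listed reads in Ednrb-/- libraries and 1.0127 to 1.0349 times in WT libraries. A lower total raises FPKM, so this part of the scaling differed by genotype and enters every genotype difference. The alternative with the listed reads' sum as the total leaves it out. Depth limits the precision of low genes most, and counting error was not set against replicate spread.

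The main test was limma 3.58.1 (R 4.3.3) on log2(FPKM + 0.5) over the 16 libraries as 4 group means, with a trended prior and p-values adjusted by Benjamini-Hochberg over 17205 genes. Fold changes on this scale understate those of low genes. Nothing beyond the word biological says how the replicates arose, so p-values measure the spread between these libraries. The limma procedure was tested on simulated data. Alternatives were pseudocounts of 0.1 and 1, no filter and a 1 FPKM filter, scaling to TPM, by median of ratios or by quantiles, a fit of the compared groups alone, a replicate block, array weights, leaving out the 3 libraries with both Xist and Ddx3y and each library in turn. Added after the data were examined were voom on whole reads and the listed reads' sum as the library total.

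The 9 genes and all lists were chosen with earlier results of these data known. Named beyond the 9 are Ednrb, genes that act or lie beside them, up to 4 genes of each list by adjusted p, and the 2 nearest in pattern, of which the text gives a part picked after their values were seen. Npy in the caudal region and Slc6a2 were also named for their roles after their values were seen. Of the lists' symbols, Drgx was not matched in the table, and of 2 rows for Nrg1 the more abundant was used. Some planned values are not reported here.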

Additional observations from a re-analysis of the deposited data

Results flagged for a closer look

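Among 36 sets of 4 libraries, 1 per gene and group, 2 held a library whose gap to its nearest neighbour took up more of the group's range than is usual, and chance alone gives about 1 such set in 20. Gata3 in WT caudal replicate 3, at 0.742 FPKM, lay below the other 3 by a gap of 0.907 of the range. Chrna3 in Ednrb-/- trunk replicate 3, at 5.23 FPKM, lay below the other 3 by 0.888 of the range, but that range was only 5.23 to 5.37 FPKM.

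The genotype effect differed between the trunk and the caudal region in the interaction test of limma for 5 genes. On the log2 scale it differed by 0.959 for Phox2a, 1.10 for Tlx2, 1.70 for Dbh, 0.742 for Chgb and 0.994 for Chrna3. In each the signed trunk value was above the caudal value, which does not mean a bigger change in the trunk. The trunk and caudal differences were 0.04 and -0.92 for Phox2a, -0.29 and -1.99 for Dbh, and -0.76 and -1.50 for Chgb. They were 0.81 and -0.29 for Tlx2, and 0.34 and -0.66 for Chrna3. All 12 pan-neuronal markers fell in the caudal region and 2 of 12 in the trunk, and their part in these differences was not tested.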

How the results depend on the processing

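Of 1291 alternative values for the 9 genes, 1205 kept direction and side of the threshold, 59 lost a call, 17 gained one and 10 changed sign, all of them values with no call. Of these, 9 came from leaving out 1 library, over which the log2 difference ranged from -0.075 to 0.178 for Phox2a in the trunk comparison, from -0.018 to 0.235 for Phox2a, -0.048 to 0.534 for Hand2 and -0.0995 to 0.106 for Gata3 between WT regions, and from -0.298 to 0.012 for Hand2 between Ednrb-/- regions. Gata3 between WT regions was -0.028 with array weights. The cause was not tested. Leaving out 1 library gave 3 to 6 called genes in the trunk, 8 to 9 in the caudal region, 2 to 4 between WT regions, 7 to 7 between Ednrb-/- regions and 1 to 5 for the interaction. Other settings gave 3 to 5, 7 to 9, 2 to 4, 6 to 7 and 1 to 6. The count between WT regions was 2 with no filter and 2 without the libraries with both Xist and Ddx3y. That of the interaction was 1 with no filter, where more genes are tested. Over all genes the interaction then had 334 calls higher and 237 lower among 37417 tested.

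Replicate numbers did not pair the libraries (correlations of deviations from -0.084 to 0.109 over 24 pairs, 1 over 0.1). A replicate block kept the other calls and added Chrna3 in the trunk (limma, adjusted p = 0.0395) and Chga in the interaction (limma, adjusted p = 0.0434). The listed edgeR test of whole reads was not run, since the deposited unit is FPKM, and voom stood in for it.

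Phox2a and Dbh rest on 0 to 40 reads in Ednrb-/- caudal libraries, and their fitted falls moved with the pseudocount. With pseudocounts of 0.1 and 1 they were -2.04 and -0.56 for Phox2a and -3.07 and -1.46 for Dbh. Voom on whole reads, which also changes the library total and the weights, gave -3.63 and -3.85, and all were called.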
